A study of Homo sapiens with 15 samples.

Results

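The genes described here encode the proteins that license DNA replication origins and work at the replication fork. They were taken by symbol from a list of 41 genes: the origin recognition complex (ORC1 to ORC6), the licensing factors CDC6 and CDT1 and the inhibitor GMNN, the MCM2-7 helicase, the helicase activators MCM10, CDC45 and GINS1 to GINS4, the polymerases, the sliding clamp PCNA and its loader RFC1 to RFC5, the single-strand binding proteins RPA1 to RPA3, and the Okazaki fragment enzymes LIG1 and FEN1. Of these, 40 were found among the 12261 genes of the deposited table, each with 1 transcript; FEN1 was not analysed here. The cells were HEK-293 Trex, an established human kidney line in which doxycycline switches a transgene on, and every group received 200 ng/mL doxycycline. The cells expressed CLIP-tagged UPF1 isoform 1 (UPF1-1), CLIP-tagged UPF1 isoform 2 (UPF1-2) or GFP. RNA affinity-purified with the tagged protein (IP) was sequenced from the UPF1-1 and the UPF1-2 line, and total RNA from the UPF1-1, the UPF1-2 and the GFP line, with 3 libraries in each of the 5 groups. Each construct sat in its own line, so the protein and the line cannot be told apart, and an IP from the GFP line was not analysed here, so recovery has no background purification beside it.

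Replication starts where the origin recognition complex, CDC6 and CDT1 load the MCM2-7 ring onto DNA, a step called licensing that GMNN blocks once S phase has begun. CDC45, the GINS complex and MCM10 then turn the loaded ring into an active helicase. Polymerase alpha-primase lays down primers, polymerases delta and epsilon extend them on PCNA, RFC loads PCNA, RPA coats the unwound strand, and FEN1 and LIG1 finish the lagging strand. Many of these genes are transcribed together at the boundary of G1 and S phase by E2F factors, so they are often read as a mark of proliferation. UPF1 is an RNA helicase of nonsense-mediated mRNA decay that binds mRNA broadly, and its isoforms differ in the regulatory loop of the helicase domain.

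Promoter stretches are shown for 8 genes called in the results below whose promoters hold E2F-type letters. MCM2, MCM3, MCM6 and MCM7 of the helicase differed between the isoforms in recovery (IP over total RNA). CDC6, GINS1, GINS3 and PCNA rose in UPF1-1 total RNA. Called genes without these letters are named after the sequences. The sequences are from RefSeq (GRCh38.p14), run 5′ to 3′ on the gene's strand, and cover 100 bases before and 20 after the annotated start. Capitals mark E2F-type letters, TTTCCCGC, TTTCGCGC, TTTGCCGC or TTTGGCGC, searched on both strands; in MCM2 and MCM6 matches on opposite strands overlap.
MCM2, chr3:127598311-127598430 (+ strand): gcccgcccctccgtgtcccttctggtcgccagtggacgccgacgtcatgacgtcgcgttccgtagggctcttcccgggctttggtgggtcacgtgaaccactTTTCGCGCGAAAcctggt
MCM3, chr6:52284723-52284842 (- strand): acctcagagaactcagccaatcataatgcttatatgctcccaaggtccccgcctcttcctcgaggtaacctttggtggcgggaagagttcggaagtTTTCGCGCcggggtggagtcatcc
MCM6, chr2:135876424-135876543 (- strand): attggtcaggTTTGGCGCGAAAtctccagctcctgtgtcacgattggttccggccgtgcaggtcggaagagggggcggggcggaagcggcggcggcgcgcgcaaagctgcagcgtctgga
MCM7, chr7:100101378-100101497 (- strand): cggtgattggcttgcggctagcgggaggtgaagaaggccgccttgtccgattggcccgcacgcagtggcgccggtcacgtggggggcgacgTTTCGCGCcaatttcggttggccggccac
CDC6, chr17:40287779-40287898 (+ strand): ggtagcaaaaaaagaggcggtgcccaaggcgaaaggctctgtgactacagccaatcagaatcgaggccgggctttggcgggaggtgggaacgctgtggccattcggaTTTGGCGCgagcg
GINS1, chr20:25407573-25407692 (+ strand): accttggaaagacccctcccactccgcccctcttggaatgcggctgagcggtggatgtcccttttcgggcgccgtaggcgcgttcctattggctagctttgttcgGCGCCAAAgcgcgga
GINS3, chr16:58392371-58392490 (+ strand): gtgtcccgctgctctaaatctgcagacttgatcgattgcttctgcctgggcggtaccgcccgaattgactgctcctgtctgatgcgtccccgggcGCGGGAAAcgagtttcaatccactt
PCNA, chr20:5126603-5126722 (- strand): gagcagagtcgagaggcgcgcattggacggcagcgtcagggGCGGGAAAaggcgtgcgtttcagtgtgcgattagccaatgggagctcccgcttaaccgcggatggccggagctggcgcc
RefSeq promoters of 250 bases before to 50 after a start were matched for 34 of the 40 genes, with 43 promoters. These letters occurred in 18 of the 43 (41.9%), each of a different gene, against 5.19% of the 12362 promoters of genes in the deposited table and 3.31% of all 35116 promoters. Of the other genes called in total RNA or in the isoform difference below, LIG1 and POLE had the letters in this window. The promoters of ORC1, ORC6, RFC4, POLD1 and CDC45 had none, although ORC6 and RFC4 rose more than GINS1 and CDC6 in UPF1-1 total RNA and POLD1 had the lowest isoform difference. MCM4, MCM5, GINS4, POLD3, RPA2 and RPA3 were not matched. A match is a description of the letters only.

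UPF1 was checked first. It had 106, 94.5 and 186 TPM in UPF1-1 total RNA and 68.9, 72.7 and 171 TPM in UPF1-2 total RNA, against 3.24, 3.80 and 8.57 TPM in GFP total RNA. By limma it was 0.31 higher on the log2 scale in UPF1-1 than in UPF1-2 total RNA (adjusted p = 0.036), and the part of this difference in the results below was not tested. The third replicate stood apart in every group: after group means were removed, libraries numbered 3 correlated negatively with those numbered 1 or 2 (r of -0.89 to -0.72 in total RNA and -0.86 to -0.68 in the IP fit). The genes of the table held 46.1 to 69.9% of the TPM scale in UPF1-1 IP and 44.7 to 69.6% in UPF1-2 IP, against 12.2 to 19.0% in total RNA; read depth per library is unknown. Of 7 markers of the HEK-293 line 4 were in the table, VIM at 113 to 184 TPM, KRT18 at 19.2 to 42.0, KRT8 at 6.37 to 27.3 and NEFL at 6.57 to 18.8 in total RNA. The others, PAX2, LHX1 and NEFM, were not in it. Of 5 fibroblast, 4 leukocyte and 3 hepatocyte markers 0 were in it. The cells are bulk samples, in which fewer cycling cells and less RNA per cell cannot be told apart, and the labels do not say that replicates were separate cultures, so p-values measure the spread between these libraries only.

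The replication genes were well expressed. Their median level in GFP total RNA was 9.76 TPM, against 1.87 TPM for the whole table. MCM7 and PCNA were the most abundant, at 77.3 ± 20.0 and 76.1 ± 13.2 TPM (mean ± SD, n = 3), and did not differ beyond their spread. Within the helicase, whose subunits form a ring of 1 copy each, the levels ranged from 77.3 ± 20.0 TPM for MCM7 and 44.5 ± 7.15 for MCM4 to 14.3 ± 4.56 for MCM5 and 12.9 ± 1.51 for MCM6. The origin recognition complex was lower and uneven, with 15.03 ± 0.423 TPM for ORC6, 7.57 ± 0.246 for ORC5 and 1.59 ± 0.201 for ORC4. All 40 genes together made up 0.485% of the table's TPM in UPF1-1 total RNA and 0.458% in UPF1-2 total RNA, against 0.446% in GFP total RNA (means of 3). In the IPs they made up 0.995% with UPF1-1 and 1.06% with UPF1-2, a larger share of the listed RNA than in total RNA of any line.

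**Figure D1:**
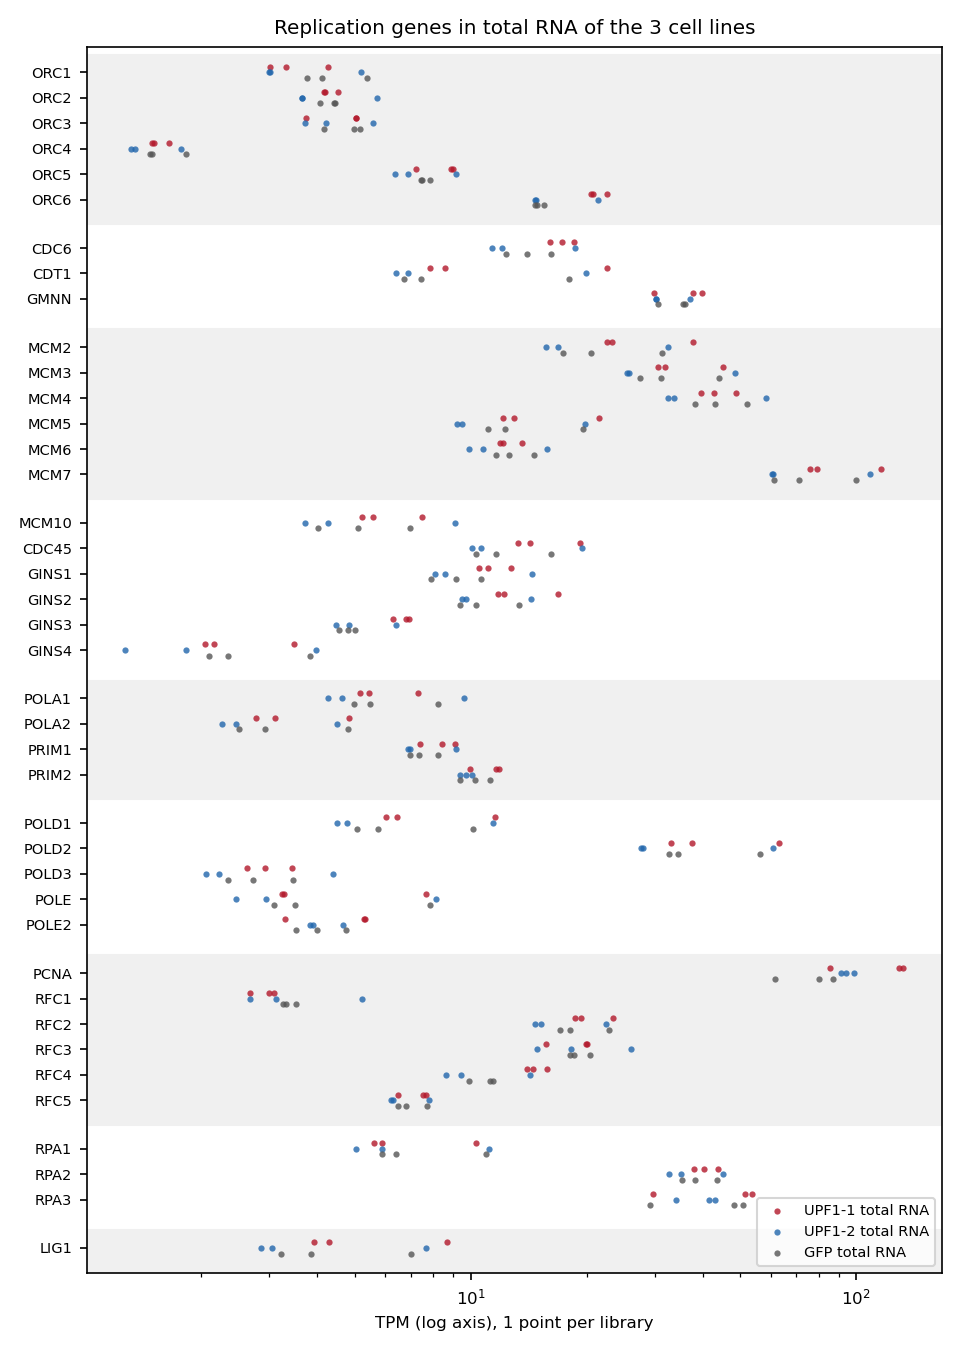
TPM of the 40 replication genes in total RNA (log axis), 1 point per library, with UPF1-1, UPF1-2 and GFP from top to bottom within a gene and shading by role. MCM7 and PCNA lie farthest right, ORC4 and GINS4 farthest left, and the lines' points overlap for most genes.

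The first comparison put UPF1-1 total RNA against GFP total RNA. A few replication genes rose slightly and most did not pass the test. PCNA, ORC6, GINS3, RFC4, GINS1 and CDC6 rose, by 0.20 to 0.50 on the log2 scale, and ORC1 fell. That is 7 of 40 genes, or 17.5%, where 16.2% of the 9325 genes tested were called; 15% of the members were higher, against 8.38% of all, and 2.5% lower, against 7.79%. The median change of the 40 was 0.00 and that of all genes -0.01, with 20 positive and 20 negative. Changes here and below are on the log2(TPM + 0.5) scale with library medians set equal, which understates changes of low genes, and calls are limma's at a Benjamini-Hochberg adjusted p under 0.05.

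PCNA, the clamp that tethers polymerases to DNA, had 132, 129 and 85.4 TPM in UPF1-1 total RNA, against 80.0, 87.0 and 61.5 TPM in GFP total RNA. Only the third UPF1-1 library reached into the GFP range, and within each replicate number PCNA was higher with UPF1-1, by 0.54, 0.53 and 0.43 on the log2 scale. The change was 0.50 ± 0.07 (SE), with an adjusted p of 0.0032. ORC6, the smallest subunit of the origin recognition complex, had 22.6, 20.8 and 20.5 TPM with UPF1-1, against 14.9, 14.7 and 15.5 TPM with GFP, and the groups did not overlap. It rose by 0.40 ± 0.06 (adjusted p = 0.0028). GINS3, a subunit of the GINS complex that holds CDC45 to the helicase, had 6.90, 6.29 and 6.78 TPM with UPF1-1, against 4.56, 5.00 and 4.81 TPM with GFP, again without overlap. It rose by 0.35 ± 0.06 (adjusted p = 0.0057). RFC4, a small subunit of the clamp loader, had 15.8, 14.0 and 14.5 TPM with UPF1-1, against 9.92, 11.2 and 11.4 TPM with GFP. All UPF1-1 libraries were the higher ones, and the change was 0.34 ± 0.08 (adjusted p = 0.02). GINS1 had 10.5, 11.1 and 12.7 TPM with UPF1-1, against 7.91, 9.17 and 10.6 TPM with GFP. Its levels touch, since the third GFP library lay above the first UPF1-1 library, but the ratios within a number were close to each other (0.21, 0.22 and 0.20), and the change was 0.21 ± 0.06 (adjusted p = 0.039).

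CDC6, the ATPase that recruits MCM2-7 to the origin, had 17.2, 16.03 and 18.5 TPM with UPF1-1, against 12.3, 14.0 and 16.1 TPM with GFP, with the third GFP library inside the UPF1-1 range; it rose by 0.20 ± 0.05 (adjusted p = 0.041). ORC1, the ATPase subunit that cells degrade and rebuild each cycle, had 3.02, 3.32 and 4.27 TPM with UPF1-1, against 3.76, 4.11 and 5.38 TPM with GFP. The ranges overlap because the third library is the highest in both groups, and within each number ORC1 was lower with UPF1-1, by -0.46, -0.31 and -0.35. It fell, with a change of -0.37 ± 0.07 (adjusted p = 0.01). ORC1 and ORC6 thus went opposite ways within a single complex, and the changes of the remaining subunits lay between -0.14 for ORC3 and 0.04 for ORC5 without passing. The MCM2-7 genes had 0 of 6 called, with changes between -0.13 for MCM6 and 0.18 for MCM2 (adjusted p = 0.069). Polymerase alpha-primase (0 of 4), polymerases delta and epsilon (0 of 5) and RPA (0 of 3) had no call either; over all 40 genes 14 had an unadjusted p under 0.05 by limma. Calls numbered 2 without replicate 1, 1 without replicate 2 and 7 without replicate 3, and without the replicate block 0 (1 at an unadjusted p under 0.05). The 7 without replicate 3 were 6 of the genes above and RFC1. With the block but without equal medians only PCNA passed (adjusted p = 0.017), and PCNA alone also passed with each of the replicates left out in turn.

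**Figure D2:**
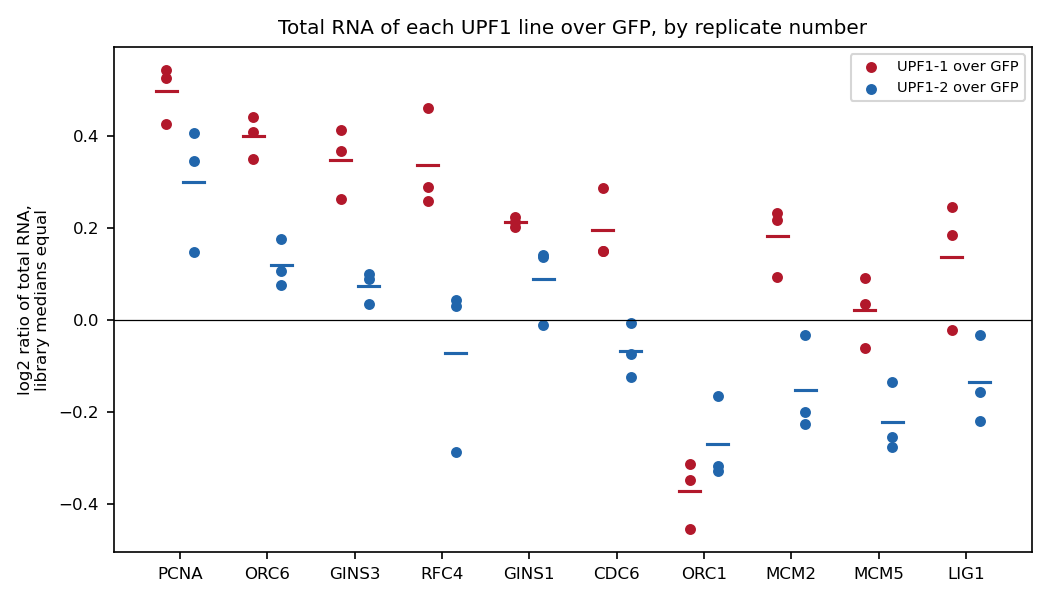
Log2 ratio of total RNA in the UPF1-1 line (red) and the UPF1-2 line (blue) to GFP for the same replicate number, with library medians equal; points are replicate numbers and bars their means. The UPF1-1 points of PCNA, ORC6, GINS3, RFC4, GINS1 and CDC6 all lie above 0 and those of ORC1 below it; the same GFP libraries enter both colors.

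UPF1-2 total RNA was then set against the same GFP libraries, so it is not independent of the first. By limma 0 of the 40 genes passed, with 10 at an unadjusted p under 0.05, and 0.375% of all genes tested were called. The changes were small and mostly negative: 34 of 40 lay below 0, with a median of -0.09, where the median of all genes was -0.02; without equal medians 11 of the 40 were positive in place of 6. PCNA had the highest value, 0.30 ± 0.07 (SE, adjusted p = 0.16), with 94.2, 91.1 and 98.9 TPM in UPF1-2 total RNA against 80.0, 87.0 and 61.5 TPM in GFP total RNA. All 3 UPF1-2 libraries were above all 3 GFP libraries, and the test did not pass. GINS4, a GINS subunit, had the lowest, -0.29 ± 0.07 (adjusted p = 0.15), followed by ORC1 at -0.27 ± 0.07 (adjusted p = 0.19) and MCM5 at -0.22 ± 0.06 (adjusted p = 0.19). For all 6 MCM2-7 genes the value was negative, from -0.22 for MCM5 to -0.07 for MCM7. The authors' deposited table, which gives sleuth q-values for the contrasts of total RNA, had 0 of the 40 genes under 0.05 in any of the 3 contrasts, with a lowest member q of 1.00, where 45 genes passed for UPF1-1 against GFP, 4 for UPF1-2 against GFP and 17 between the isoforms.

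Set directly against each other, the total RNAs of the UPF1 lines differed in a few of the genes, some of the helicase among them. In UPF1-1 total RNA 7 of 40 genes were higher than in UPF1-2 total RNA and 0 lower by limma (16 at an unadjusted p under 0.05). That is 17.5%, where 9.51% of all genes were called, 5.49% higher and 4.02% lower. Of the 40 changes 32 were positive, with a median of 0.11 against 0.00 for all genes. The third UPF1-2 library lay inside or above the UPF1-1 range for each of the 7 called genes, so the groups overlap in TPM. With library medians equal, each of these genes was higher with UPF1-1 within every replicate number. In TPM the third pair of ORC6 and of CDC6 went the other way. RFC4 had 15.8, 14.0 and 14.5 TPM with UPF1-1, against 9.44, 8.60 and 14.2 TPM with UPF1-2, and differed by 0.41 ± 0.08 (SE, adjusted p = 0.017). MCM2, the subunit that also carries parental histones, had 23.3, 22.6 and 37.8 TPM with UPF1-1, against 15.6, 16.8 and 32.5 TPM with UPF1-2, and differed by 0.33 ± 0.06 (adjusted p = 0.015). Both were higher with UPF1-1 in all 3 pairs of libraries. ORC6 had 22.6, 20.8 and 20.5 TPM with UPF1-1, against 14.8, 14.7 and 21.4 TPM with UPF1-2 (0.28 ± 0.06, adjusted p = 0.02), and GINS3 had 6.90, 6.29 and 6.78 TPM, against 4.48, 4.83 and 6.39 TPM (0.27 ± 0.06, adjusted p = 0.024). CDC6 had 17.2, 16.03 and 18.5 TPM with UPF1-1, against 11.3, 12.05 and 18.7 TPM with UPF1-2 (0.26 ± 0.05, adjusted p = 0.023). For these genes too the first and second libraries separate cleanly and the third libraries are close. LIG1 (0.27) and MCM5 (0.24) were the other genes called higher. Calls numbered 2, 0 and 2 without replicates 1, 2 and 3, with 11 genes at an unadjusted p under 0.05 without replicate 2. They numbered 0 without the block or without equal medians, with 2 and 11 at an unadjusted p under 0.05.

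Recovery with UPF1 was measured as IP over total RNA of the same line and number. Before library medians were set equal the median gene was 2.40 higher in UPF1-1 IP and 2.38 higher in UPF1-2 IP on the log2 scale, and all 40 replication genes were higher in both. Each of the 40 genes with a recovery below 0 after that step was still higher in the IP before it. All recoveries below are with library medians equal, and rises, falls and tests are relative to 0 on that scale. The median gene was not at 0 there but at -0.16 with UPF1-1 and -0.15 with UPF1-2. A gene slightly below 0 can therefore lie above the median gene. On this scale the replication mRNAs spread widely. With UPF1-1, 23 of 40 rose and 9 fell (80.0% called, where 74.7% of the 11969 genes tested were called, 30.8% higher and 43.9% lower). With UPF1-2, 28 rose and 5 fell (82.5%, against 75.7% of all genes, 31.5% higher and 44.2% lower). The median recovery of the 40 was 0.24 with UPF1-1 and 0.70 with UPF1-2, where that of all genes was -0.16 and -0.15. The UPF1-1 value depended on the pseudocount: with 0.1 the median of the 40 was 0.07, with 17 genes called higher, and with 1 it was 0.39, with 25 called higher. With each replicate left out in turn, 22 of the 32 genes called with UPF1-1 and 30 of the 33 called with UPF1-2 kept the call in all 3 fits. The calls lost in at least 1 of them were those of CDC45, GINS2, MCM2, MCM6, MCM7, ORC1, ORC4, PCNA, POLA2 and PRIM2 with UPF1-1, and of GINS2, POLE2 and RPA1 with UPF1-2. Without the block 12 calls with UPF1-1 and 5 with UPF1-2 were lost. With UPF1-1 these were CDC45, GINS2, MCM2, MCM6, MCM7, ORC3, ORC4, PCNA, POLA2, POLE, PRIM2 and RFC3. With UPF1-2 they were GINS2, GMNN, POLE2, PRIM2 and RPA1.

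**Figure D3:**
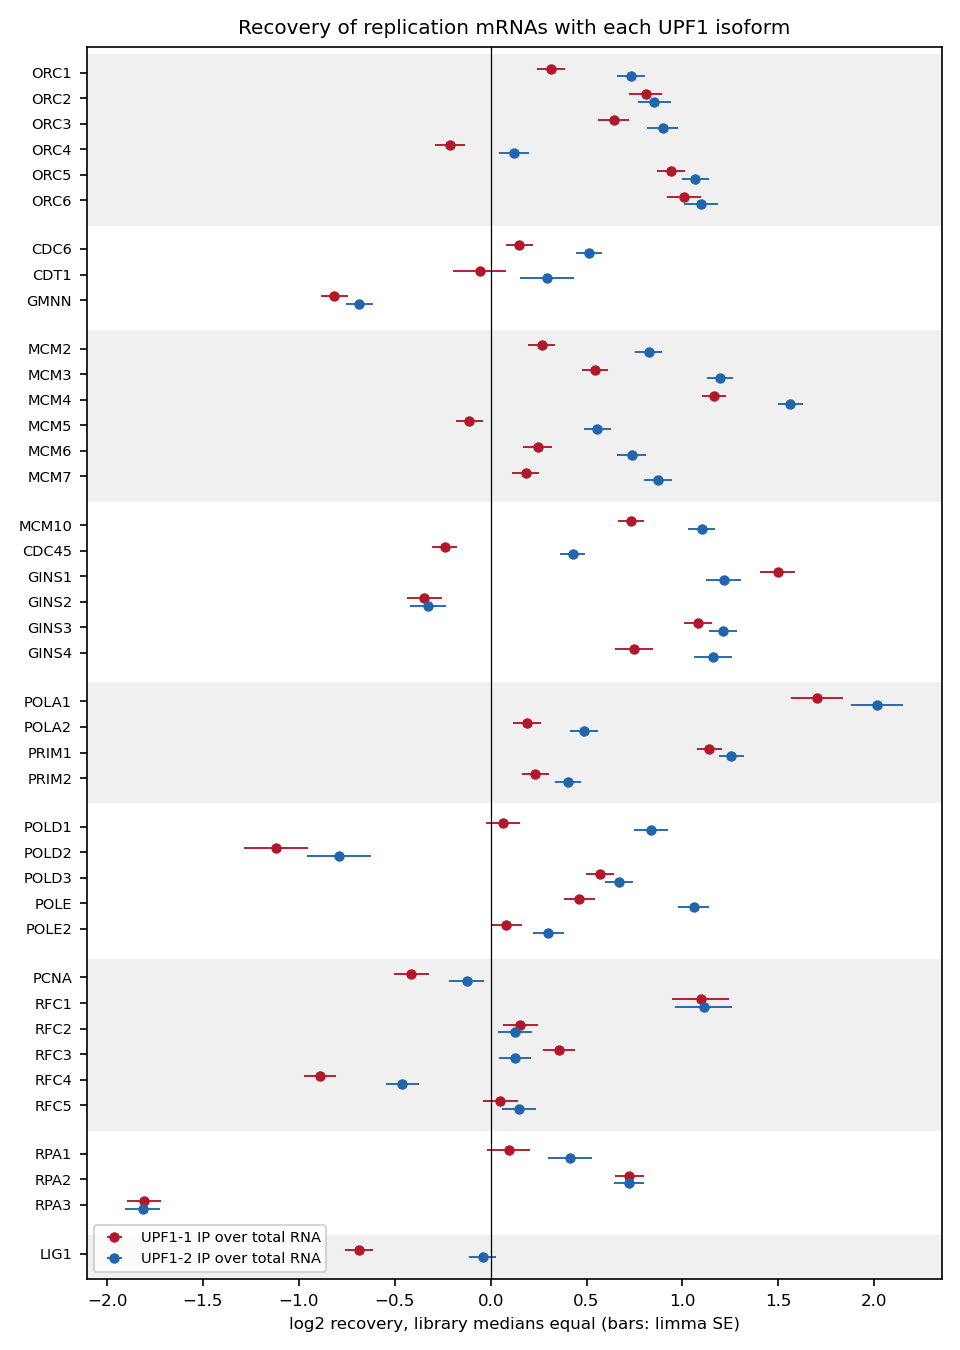
Log2 recovery (IP over total RNA, library medians equal) of 40 replication mRNAs with UPF1-1 (red) and UPF1-2 (blue), with bars for limma's SE and shading by role. POLA1, GINS1, MCM4 and PRIM1 lie farthest right and RPA3, POLD2, RFC4 and GMNN left of 0 with both isoforms; without equal medians every gene would lie right of 0.

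The mRNAs of polymerase alpha-primase, which starts every new strand, were recovered above the median gene in 4 of 4 cases with each isoform. POLA1, its catalytic subunit, had the highest recovery of the 40 genes. It had 96.5, 82.2 and 229 TPM in UPF1-1 IP, against 5.43, 5.17 and 7.28 TPM in UPF1-1 total RNA, and recovered at 1.70 ± 0.14 (SE, adjusted p = 8.2e-06). With UPF1-2 it had 113, 97.5 and 280.4 TPM in the IP, against 4.25, 4.62 and 9.59 TPM in total RNA, at 2.01 ± 0.14 (adjusted p = 2.9e-06). The third pair gave the highest ratio with both isoforms, 1.58, 1.48 and 2.04 with UPF1-1 and 1.93, 1.77 and 2.35 with UPF1-2 for the pairs in order, and every pair was far above 0. PRIM1, the catalytic primase subunit, had 111, 106 and 125 TPM in UPF1-1 IP, against 9.12, 8.41 and 7.40 TPM in UPF1-1 total RNA (1.14 ± 0.07, adjusted p = 1.3e-06). Its UPF1-2 values were 108, 101 and 124 TPM in the IP, against 6.94, 6.88 and 9.14 TPM in total RNA (1.25 ± 0.07, adjusted p = 8.6e-07). POLA2 and PRIM2, the accessory subunits, were closer to the median gene, at 0.19 and 0.23 with UPF1-1 and 0.49 and 0.40 with UPF1-2. Their UPF1-1 calls held in 1 of 3 fits with a replicate left out and were lost without the block (adjusted p = 0.18 and 0.55), as was that of PRIM2 with UPF1-2 (0.29).

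The helicase activators split. GINS1 had 186, 179 and 233 TPM in UPF1-1 IP, against 10.5, 11.1 and 12.7 TPM in UPF1-1 total RNA, a recovery of 1.496 ± 0.09 (adjusted p = 1.8e-06). With UPF1-2 the values were 127, 129 and 168 TPM in the IP, against 8.05, 8.57 and 14.4 TPM in total RNA (1.22 ± 0.09, adjusted p = 5.2e-06). GINS2, which sits in the same 4-protein complex, behaved in the opposite way: it had 48.8, 47.5 and 62.0 TPM in UPF1-2 IP, against 9.74, 9.47 and 14.4 TPM in UPF1-2 total RNA, and fell below 0 (-0.33 ± 0.09, adjusted p = 0.011). With UPF1-1 it also fell, at -0.35; the UPF1-2 call was lost with a pseudocount of 1 (adjusted p = 0.19), without replicate 1 (0.11) and without the block (0.073). GINS3 rose in both, and in UPF1-2 it had 68.8, 69.8 and 89.0 TPM in the IP, against 4.48, 4.83 and 6.39 TPM in total RNA (1.21 ± 0.07, adjusted p = 1.8e-06; 1.08 with UPF1-1). GINS4 rose by 0.75 with UPF1-1 and 1.16 with UPF1-2, and MCM10, which helps the ring to separate the strands, by 0.73 and 1.10. CDC45 was below 0 with UPF1-1 (-0.24), close to the median gene at -0.16, and above 0 with UPF1-2 (0.43). By limma its UPF1-1 call was lost without the block (adjusted p = 0.081).

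Among the MCM2-7 mRNAs 5 of 6 rose with UPF1-1 and 6 of 6 with UPF1-2. With UPF1-1 the calls of MCM2, MCM6 and MCM7 held in 1 of 3 fits with a replicate left out and were lost without the block (adjusted p = 0.10, 0.17 and 0.18), and MCM7, at 0.18, was at -0.02 with a pseudocount of 0.1. MCM4 had the highest recovery, with 514, 473 and 808 TPM in UPF1-1 IP, against 42.7, 39.6 and 48.7 TPM in UPF1-1 total RNA (1.16 ± 0.06, adjusted p = 1.1e-06). With UPF1-2 it had 627, 562 and 929 TPM in the IP, against 32.5, 33.6 and 58.4 TPM in total RNA (1.56 ± 0.06, adjusted p = 3.2e-07). MCM5 had the lowest, -0.11 with UPF1-1 (adjusted p = 0.17) and 0.56 with UPF1-2 (adjusted p = 1.0e-04). The origin recognition complex rose for 5 of 6 mRNAs with each isoform, from 0.31 for ORC1 to 1.01 for ORC6 with UPF1-1 and from 0.73 for ORC1 to 1.10 for ORC6 with UPF1-2. ORC4 was the exception, at -0.21 with UPF1-1 and 0.12 with UPF1-2. Its UPF1-1 call (adjusted p = 0.033) was lost in each fit with a replicate left out (0.087 to 0.16) and without the block (0.46), and with UPF1-2 it was not called. The antagonists CDT1 and GMNN differed: CDT1 was not called with either isoform (-0.06 and 0.29), while GMNN fell below 0 with both. GMNN had 117, 116 and 128 TPM in UPF1-1 IP, against 39.7, 37.8 and 29.9 TPM in UPF1-1 total RNA (-0.81 ± 0.07, adjusted p = 1.4e-05). Its UPF1-2 values were 129, 103 and 122 TPM in the IP, against 30.1, 30.3 and 37.0 TPM in total RNA (-0.68 ± 0.07, adjusted p = 3.8e-05, which was 0.060 without the block).

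RPA3, the smallest subunit of the single-strand binding trimer, had the lowest recovery of the 40 genes with both isoforms. It had 83.1, 88.1 and 54.2 TPM in UPF1-1 IP, against 53.6, 51.4 and 29.7 TPM in UPF1-1 total RNA (-1.81 ± 0.09, adjusted p = 6.2e-07). With UPF1-2 it had 78.6, 72.3 and 47.8 TPM in the IP, against 41.5, 43.0 and 34.0 TPM in total RNA (-1.81 ± 0.09, adjusted p = 6.7e-07). Its partner RPA2 rose by 0.72 with UPF1-1 and 0.72 with UPF1-2, and RPA1, the large subunit, by 0.41 with UPF1-2, with 0.09 and no call with UPF1-1. POLD2, an accessory subunit of polymerase delta, had 107, 103 and 145 TPM in UPF1-1 IP, against 37.4, 33.2 and 62.9 TPM in UPF1-1 total RNA (-1.12 ± 0.17, adjusted p = 3.5e-04). With UPF1-2 it had 110.4, 106 and 153 TPM in the IP, against 27.6, 28.0 and 60.7 TPM in total RNA (-0.79 ± 0.17, adjusted p = 0.0025). POLD3 rose with both (0.57 and 0.67), as did POLE, the catalytic subunit of polymerase epsilon (0.46 with UPF1-1 and 1.06 with UPF1-2), while POLE2 passed with UPF1-2 (0.30) and had 0.08 and no call with UPF1-1. By limma without the block the calls of POLE with UPF1-1 (adjusted p = 0.22), POLE2 with UPF1-2 (0.52) and RPA1 with UPF1-2 (0.13) were lost.

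The clamp loader subunits were recovered unevenly. RFC1, its large subunit, had 35.7, 29.5 and 72.7 TPM in UPF1-1 IP, against 2.68, 3.08 and 3.003 TPM in UPF1-1 total RNA (1.09 ± 0.15, adjusted p = 1.9e-04), and its recovery with UPF1-2 was 1.11 ± 0.15 (adjusted p = 1.7e-04). RFC4 had 46.4, 36.7 and 64.4 TPM in UPF1-1 IP, against 15.8, 14.0 and 14.5 TPM in UPF1-1 total RNA (-0.89 ± 0.08, adjusted p = 2.1e-05). Its UPF1-2 values were 40.9, 36.9 and 63.0 TPM in the IP, against 9.44, 8.60 and 14.2 TPM in total RNA (-0.46 ± 0.08, adjusted p = 0.001). RFC2, RFC3 and RFC5 lay between, from 0.05 to 0.36 with UPF1-1, where RFC3 passed, and from 0.13 to 0.15 with UPF1-2, where none of these 3 passed. PCNA fell with UPF1-1 (-0.41) and was not called with UPF1-2 (-0.12). LIG1, the ligase that seals Okazaki fragments, had 16.6, 14.2 and 37.3 TPM in UPF1-1 IP, against 4.28, 3.92 and 8.67 TPM in UPF1-1 total RNA, and fell below 0 (-0.69 ± 0.07, adjusted p = 4.0e-05). With UPF1-2 it was not called (-0.04 ± 0.07, adjusted p = 0.61). Left-out replicates gave 22 to 32 called genes with UPF1-1 and 30 to 36 with UPF1-2, and the fit without the block 20 and 28.

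Recovery was then compared between the isoforms, as UPF1-1 minus UPF1-2, which also tests the genes called with one isoform and not the other. The mRNAs of POLD1, POLE, CDC45, LIG1, ORC1, CDC6 and all 6 MCM2-7 genes were called lower with UPF1-1, by 0.36 to 0.77 on the log2 scale, and 0 genes higher. POLD1 and POLE were 2 of the 5 genes of polymerases delta and epsilon, and of the 4 polymerase alpha-primase genes 0 were called. In all these were 12 of 40, or 30%, where 10.7% of all genes were called, 4.43% higher and 6.27% lower; 17 of the 40 had an unadjusted p under 0.05. Of the 40 differences 35 were negative, with a median of -0.31, where that of all genes was -0.04. In 20 of the 40 genes the 3 UPF1-1 ratios all lay below the 3 UPF1-2 ratios, against 19.5% of all genes, and in 0 they all lay above, against 15.7%. The 12 called genes are among the 20. Without replicate 1 or without replicate 2, 0 genes of the whole table passed, with 11 and 14 of the 40 at an unadjusted p under 0.05. Without replicate 3, 9 of the 12 were still called; POLE, ORC1 and CDC6 were not, and MCM10 and RFC4 passed in addition. The count was also 0 without the block or without equal medians, with 11 and 9 at an unadjusted p under 0.05.

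**Figure D4:**
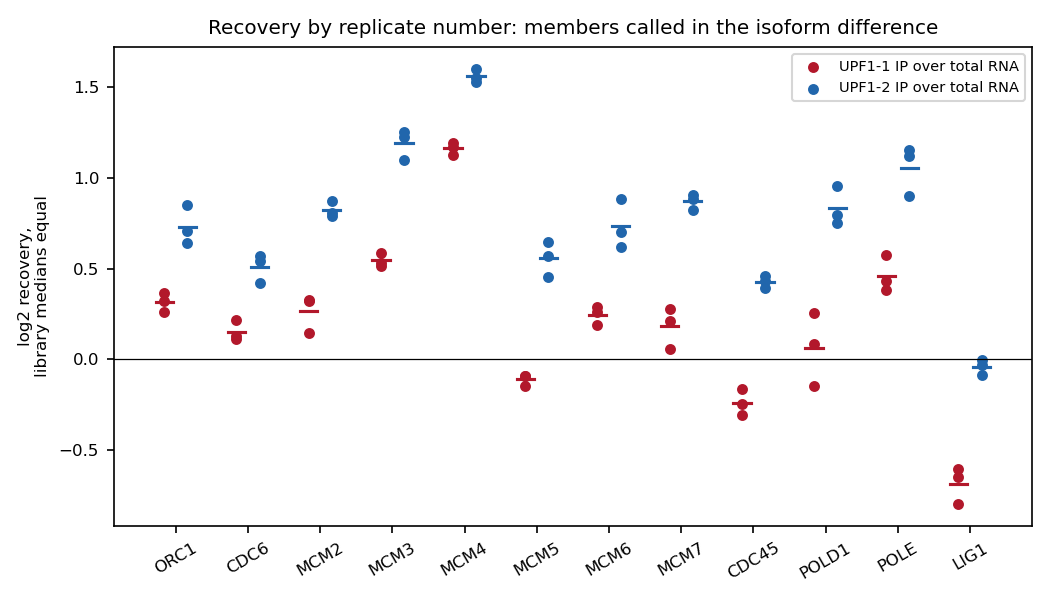
Log2 recovery by replicate number for the 12 genes called in the isoform difference, UPF1-1 (red) left of UPF1-2 (blue), with bars for the mean and library medians equal. In each gene the 3 UPF1-1 points lie below the 3 UPF1-2 points; MCM4 is the highest and LIG1 the lowest.

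POLD1, the catalytic subunit of polymerase delta, had recoveries of 0.08, 0.25 and -0.15 with UPF1-1, against 0.96, 0.80 and 0.75 with UPF1-2, in log2 over the 3 numbers. In TPM it had 39.5, 40.3 and 77.8 in UPF1-1 IP, against 60.3, 50.9 and 109 in UPF1-2 IP, over total RNA of 6.42, 6.03 and 11.6 with UPF1-1 and 4.50, 4.77 and 11.4 with UPF1-2. It was lower in each UPF1-1 IP library than in its UPF1-2 counterpart, and the difference in recovery was -0.77 ± 0.13 (SE, adjusted p = 0.017). MCM7 had recoveries of 0.21, 0.28 and 0.05 with UPF1-1, against 0.91, 0.82 and 0.88 with UPF1-2, and 504, 486 and 869.5 TPM in UPF1-1 IP, against 716, 607 and 1097 TPM in UPF1-2 IP. The difference was -0.69 ± 0.10 (adjusted p = 0.015). MCM5 had recoveries of -0.15, -0.09 and -0.09 with UPF1-1, all below 0, against 0.57, 0.45 and 0.65 with UPF1-2, all above 0. It differed by -0.67 ± 0.10 (adjusted p = 0.015). CDC45 was likewise below 0 with UPF1-1, at -0.25, -0.17 and -0.31, and above 0 with UPF1-2, at 0.43, 0.40 and 0.46. It differed by -0.67 ± 0.09 (adjusted p = 0.015). The 0 is set by equal medians and is not the median gene, which was at -0.16 with UPF1-1. MCM5, at -0.11 with UPF1-1, lay above the median gene with both isoforms. Before medians were set equal, CDC45 was higher in both IPs, by 2.32 with UPF1-1 and 2.96 with UPF1-2. MCM3 had 0.53, 0.51 and 0.59 with UPF1-1, against 1.23, 1.10 and 1.26 with UPF1-2, all above 0 and well apart, and differed by -0.65 ± 0.10 (adjusted p = 0.015).

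The other called differences were -0.65 for LIG1, -0.60 for POLE, -0.56 for MCM2, -0.49 for MCM6, -0.42 for ORC1, -0.40 for MCM4 and -0.36 for CDC6 (adjusted p from 0.016 to 0.05). RFC4 (-0.43, adjusted p = 0.054) and MCM10 (-0.37, adjusted p = 0.05) lay just outside. GINS1 had the highest value, 0.28 ± 0.13 (adjusted p = 0.19), and RFC3 the next, 0.23 (adjusted p = 0.23). RPA2 and RPA3 were recovered nearly alike, with differences of 0.00 ± 0.11 and 0.01 ± 0.13, although RPA1, their partner, had -0.32 ± 0.16 (adjusted p = 0.23). A lower ratio can come from less RNA in the IP or more in total RNA. For the 12 called genes the centred IP level was lower with UPF1-1 in 12 of 12 and the centred total RNA level higher with UPF1-1 in 11 of 12. These genes were chosen for a lower ratio with UPF1-1, so both counts follow in part from that choice and only describe it. In the fit of total RNA 32 of all 40 genes had a positive change of UPF1-1 over UPF1-2. The IP side made up 54.4 to 119% of the difference in 10 of them, 35.9% for MCM2 and 20.7% for CDC6.

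The MCM2-7 mRNAs can also be read as a sum, scaled by the total of the table in place of the median. The sum uses the same libraries and 6 genes already called above, so it is not an independent result. MCM7 and MCM4, the most abundant of the 6, weigh most in it. The share of these mRNAs in the table's TPM was 0.341, 0.321 and 0.391% in UPF1-1 IP, against 0.429, 0.408 and 0.474% in UPF1-2 IP, lower with UPF1-1 for each replicate number, with the third library highest in both. In total RNA the share was 0.136, 0.132 and 0.159% with UPF1-1 and 0.125, 0.125 and 0.149% with UPF1-2, against 0.126, 0.132 and 0.153% with GFP. It was higher with UPF1-1 than with UPF1-2 for each number there. In summed TPM the 6 mRNAs had 1584, 1481 and 2734 in UPF1-1 IP, against 2118, 1824 and 3299 in UPF1-2 IP.

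Recovery ran with a measure tied to transcript length. Estimated counts per TPM, which scale with a transcript's effective length, ranged from 50.1 for RPA3, 96.0 for GMNN and 122 for RPA2 to 1197 for POLE. Across the 40 genes log2 recovery correlated with the log2 of this measure at r = 0.41 (rho = 0.21) with UPF1-1 and r = 0.57 (rho = 0.34) with UPF1-2. Across all 11934 genes with a value r was 0.53 (rho = 0.47) and 0.54 (rho = 0.49). These are descriptions over genes of the same libraries, which are not independent. Of the 10 genes with the lowest measure, up to 247, 5 had a recovery below 0 with each isoform, against 6 and 2 of the other 30 with UPF1-1 and UPF1-2. RPA2 and ORC6 had recoveries above 0 in spite of low values, 122 and 164. The isoform difference correlated at r = -0.41 (rho = -0.40) in the 40 genes and at -0.06 (rho = -0.06) in all genes. The part of length in these results was not tested.

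**Figure D5:**
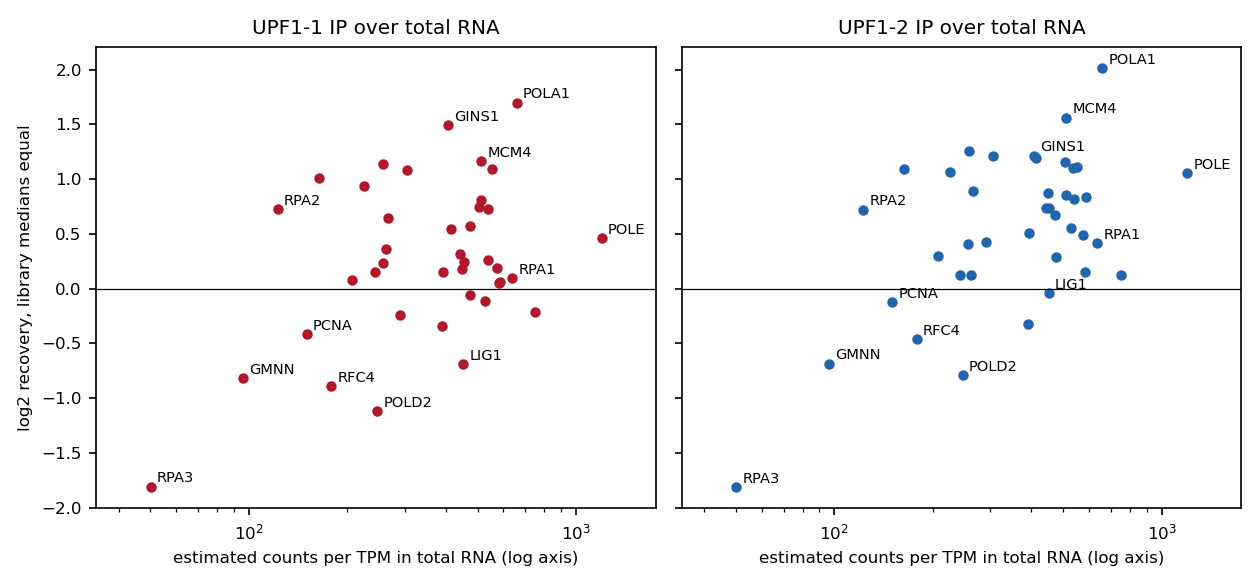
Log2 recovery (library medians equal) of 40 replication mRNAs against estimated counts per TPM in total RNA (log axis), which scale with effective transcript length, for UPF1-1 (left) and UPF1-2 (right). RPA3 is lowest on both axes, and RPA2 and LIG1 lie away from the trend.

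Genes around replication were read from 7 lists with no member in common with the 40. Over all lists 13 of 80 genes were called in UPF1-1 against GFP total RNA, 5 higher and 8 lower, or 16.2%, close to the share of all genes tested (16.2%, with 8.38% higher and 7.79% lower). Among 15 E2F and RB regulators 3 were higher in UPF1-1 than in GFP total RNA and 1 lower. E2F1, an activator of these genes, had 9.97 ± 4.70 TPM with UPF1-1, against 6.43 ± 3.38 TPM with GFP (SD, n = 3), and rose by 0.52 ± 0.06 (SE, adjusted p = 0.0014). MYBL2, a cell cycle transcription factor, had 44.7 ± 34.3 TPM with UPF1-1, against 30.8 ± 24.7 TPM with GFP, and rose by 0.47 (adjusted p = 0.0017). Of 10 dNTP supply genes 1 rose and 2 fell: TYMS, which makes thymidylate, rose by 0.38, and RRM2B, a ribonucleotide reductase subunit, fell by 0.46. Of 9 genes of replication-coupled chromatin assembly 2 fell, SUPT16H by 0.38 and UHRF1 by 0.33. Of 12 alternative clamp loaders and accessory subunits 1 fell, ATAD5, which unloads PCNA, by 0.65, with 1.03 ± 0.11 TPM with UPF1-1, against 1.75 ± 0.013 TPM with GFP. Of 13 origin firing genes RECQL4 rose by 0.29, of 11 fork protection genes WDHD1 fell by 0.27, and of 10 genes for turnover of licensing factors SKP1 fell by 0.21. In UPF1-2 against GFP 0 of 80 passed by limma, with 12 at an unadjusted p under 0.05.

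In the IPs the lists were mixed as well. Over all lists 44 of 82 genes rose and 23 fell with UPF1-1 (81.7% called, where 74.7% of all genes were, 30.8% higher and 43.9% lower). With UPF1-2 45 rose and 24 fell (84.1%, where 75.7% of all genes were called, 31.5% higher and 44.2% lower). Fork protection genes rose for 8 of 11 with UPF1-1 and 7 of 11 with UPF1-2 and fell for 2 with each, with CLSPN, an adaptor of the checkpoint kinase, at 1.00 with UPF1-1 and 1.28 with UPF1-2. Among dNTP genes RRM1, the large subunit of ribonucleotide reductase, had 335 ± 103 TPM in UPF1-1 IP, against 23.6 ± 1.12 TPM in UPF1-1 total RNA, a recovery of 1.20. With UPF1-2 it had 487 ± 147 TPM in the IP, against 23.7 ± 6.36 TPM in total RNA, a recovery of 1.79, whereas DUT fell by 1.33 with UPF1-1 and by 1.36 with UPF1-2. RNASEH2C, a subunit of an enzyme that removes RNA from DNA, had the lowest recovery, -4.07 with UPF1-1 and -3.87 with UPF1-2, and was lower in the IP also in TPM, at 1.96 ± 0.41 in UPF1-1 IP, against 6.42 ± 0.13 in UPF1-1 total RNA. In the isoform difference 9 of 82 genes were lower and 3 higher with UPF1-1, or 14.6% called, where 10.7% of all genes were, 6.27% lower and 4.43% higher. CDC20 (-0.83), the maintenance methyltransferase gene DNMT1 (-0.71), TK1 (-0.67) and the clamp loader gene CHTF18 (-0.67) were lower, and LIN54 (0.79), DCK (0.61) and TFDP1 (0.38) were higher.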

How the data were processed

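RNA-seq of total RNA (ribosomal RNA depleted, per the labels' protocols) and of affinity-purified RNA was used as deposited. The authors' table gives TPM per library, the ratio of IP to total TPM, sleuth p-values and q-values, and mean estimated counts on a natural log scale, per the file headers; cutadapt, kallisto, sleuth and the build hg19 are named in the submitters' processing notes, with versions not given in the sources used here. The deposited ratios equalled recomputed ones in 100% of entries of 6 columns, within 1e-06. Library depth is unknown, since TPM keeps none.

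Genes reaching 1 TPM in 3 or more of the libraries of a fit were tested on log2(TPM + 0.5) with library medians set equal, by limma 3.58.1 (trend) in R 4.3.3, 2-sided, with Benjamini-Hochberg adjustment over all genes tested. The replicate number was a block in total RNA, and the combination of isoform and number in the comparisons of IP with total RNA. The labels do not say that IP and total RNA of the same number came from the same culture. The block was used because same-numbered libraries correlated after group means were removed, with r between 0.70 and 0.95 in total RNA (9 pairs) and between 0.57 and 0.91 in the IP fit (18 pairs). Libraries numbered 1 and 2 were also alike (0.64 to 0.80 in total RNA, 0.59 to 0.74 in the IP fit). The fit was also run on simulated data made with an additive replicate effect, so that run cannot judge the choice of the block. Members and gene lists, and the block with equal medians as the fit led with, were chosen with earlier results of these data known. Full values are given per comparison for up to 5 members with the largest rise and fall among those called with a mean of at least 5 TPM. CDC6 and ORC1, named beyond that in the first comparison, were added after their values were seen, and other members are given by single values. Of the other lists, at most 2 genes with the largest called change are named per list and comparison. Alternatives were other pseudocounts and filters, no block, no equal medians, equal upper quartiles and each replicate left out.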

Additional observations from a re-analysis of the deposited data

Results flagged for a closer look

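Several replication genes differed between the isoforms by a direct test of the difference (limma, adjusted p under 0.05). In recovery, UPF1-1 minus UPF1-2 on the log2 scale, the values were -0.77 for POLD1, -0.69 for MCM7, -0.67 for MCM5, -0.67 for CDC45, -0.65 for MCM3, -0.65 for LIG1, -0.60 for POLE, -0.56 for MCM2, -0.49 for MCM6, -0.42 for ORC1, -0.40 for MCM4 and -0.36 for CDC6. In total RNA, UPF1-1 over UPF1-2, they were 0.41 for RFC4, 0.33 for MCM2, 0.28 for ORC6, 0.27 for GINS3, 0.27 for LIG1, 0.26 for CDC6 and 0.24 for MCM5. LIG1, MCM2, CDC6 and MCM5 appear in both, and the total RNA libraries enter both comparisons. These calls are 30% and 17.5% of the 40 genes, where 10.7% and 9.51% of all genes tested were called. In each comparison 0 of them held in all 3 fits with a replicate left out, and 0 held without the block. The authors' sleuth q-values for total RNA between the isoforms were under 0.05 for 0 of the 40.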

How the results depend on the processing

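With another pseudocount, no filter, a stricter filter or equal upper quartiles, at least 34 of 35 named results on single replication genes kept direction and call. Without the block (replicate number, or isoform and number in the IPs), medians equal, 17 of the 35 lost the call. With the block, members called numbered 7, 7, 32 and 12 in UPF1-1 against GFP, UPF1-1 against UPF1-2, UPF1-1 IP and the isoform difference. The fit without a replicate block gave 0, 0, 20 and 0. Over all genes the counts without the block were 16, 3, 0 and 0 for UPF1-1 against GFP, UPF1-2 against GFP, UPF1-1 against UPF1-2 and the isoform difference (1507, 35, 887 and 1280 with it). With the block but no centring they were 301, 6, 89 and 0, with 1, 0, 0 and 0 members; with neither 2, 1, 0 and 0, with 0 members in each. A filter of 5 TPM gave 715 and 452 genes for UPF1-1 against GFP and UPF1-1 against UPF1-2, with fewer genes tested, and a pseudocount of 1 gave 810 for the isoform difference. Leaving out a replicate gave 206 to 1141 genes and 1 to 7 members for UPF1-1 against GFP, 3 to 11 genes for UPF1-2 against GFP, 17 to 451 genes and 0 to 2 members for UPF1-1 against UPF1-2, and 0 to 1104 genes and 0 to 11 members for the isoform difference. Equal upper quartiles moved the split of all calls to 638 higher and 976 lower for UPF1-1 against GFP (781 and 726 with equal medians), 347 and 591 for UPF1-1 against UPF1-2 (512 and 375), and 846 and 459 for the isoform difference (530 and 750); the members' splits there were 4 and 1, 5 and 0, and 0 and 9. Without equal medians, with or without the block, the named genes with a recovery below 0 turned positive: RPA3 0.75, POLD2 1.44, RFC4 1.67, GMNN 1.75 and LIG1 1.87 with UPF1-1, and RPA3 0.71, POLD2 1.74, GMNN 1.84, RFC4 2.07 and GINS2 2.20 with UPF1-2. The cause of the other changes was not tested.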

Other observations

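Outside the list, the genes whose log2 level was most like the mean of the 40 replication genes over the 15 libraries were CTNNB1 (Pearson's r = 0.99), KIF24 (0.99), DDX20 (0.99), SMG8 (0.98) and ZNF304 (0.98), chosen among 11980 genes. The libraries fall into IP and total RNA, so r describes mostly that step. These genes were chosen for likeness over the same IP and total RNA libraries, so their isoform difference in recovery is not independent of that choice. It was -0.62 for CTNNB1, -0.31 for KIF24, -0.50 for DDX20, -0.52 for SMG8 and -0.38 for ZNF304.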
